A study of Oncorhynchus mykiss with 8 samples.

Results

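Transcripts of blood plasma proteins made by the liver, and of the alpha globin of red blood cells, were followed in liver and muscle of rainbow trout that had grown large or had stayed small. The genes were albumin (alb1), transferrin (trf), antithrombin, the secreted phosphoprotein spp2 and alpha globin (hba). They were taken by gene symbol from the platform annotation, which gave 5 of its 93 named genes and 9 of the 43603 probes of the array: 1 probe each for alb1, antithrombin and spp2, and 3 each for trf and hba. All 9 had a value on every array. The genes were chosen on their log2 ratios in liver and muscle of these same arrays, so what follows is a description, and no count or sign below is support for a difference between large and small fish.

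The fish were of the Lyndon strain and all were offspring of neomales, which are genetic females turned into functional males and used as sires. The growth protocol has them fed ad libitum, and the labels give no age, body weight or sex. Each array set a pool of large fish against a pool of small fish of one tissue, in 2 colours, and each pool held mRNA of 5 fish. There were 8 arrays. Titles and dyes were read as 2 pool pairs per tissue, called replicates 1 and 2, each hybridised once with the large fish in the Alexa Fluor 555 dye and once with them in the 647 dye. The labels leave unsaid whether a liver pool and a muscle pool with the same number share their fish.

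The deposited values are log2 ratios of both channels, and which channel is the numerator is unknown. It is also unknown whether the submitters had already turned the arrays with exchanged dyes, so each result is given in both ways. "As deposited" means the mean of both arrays of a pair with no sign changed. "Turned" means that the ratio from the 647 orientation of the large fish had its sign changed before averaging. In the reading where one of these measures is the contrast of large and small, the other measures the dye. Positive refers to the deposited scale of the 555 orientation of the large fish, and no sign is assigned to either size. A ratio holds no level, so the presence of hepatocytes or red cells in a sample could not be checked from markers. In such pooled tissue, fewer cells of a type and less RNA per cell cannot be told apart.

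The liver makes most proteins of the plasma and secretes them into the blood. Albumin carries fatty acids and metals and holds the osmotic pressure of the plasma, transferrin carries iron, and antithrombin is a serpin that inhibits clotting proteases. Spp2 is a secreted phosphoprotein with a cystatin-like domain, made largely by the liver in mammals. Alpha globin pairs with beta globin to form haemoglobin, and fish red cells keep their nucleus and their mRNA, so that any tissue with blood in it also carries globin transcripts.

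The spread of the 9 probes on an array overlapped between the tissues, but only with the hba probe A_05_P332705 included. The standard deviation between the 9 probes on one array ran from 0.57 to 0.95 in liver and from 0.27 to 0.60 in muscle. Between the 8 probes without A_05_P332705 it ran from 0.54 to 0.97 in liver and from 0.22 to 0.39 in muscle. Over all probes of the array the standard deviation was 0.55 to 0.92 in liver, highest on the replicate 2 array with large fish in 647, and 0.32 to 0.33 in muscle. Missing values numbered 2296 to 3035 per liver array and 428 to 845 per muscle array.

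**Figure D1:**
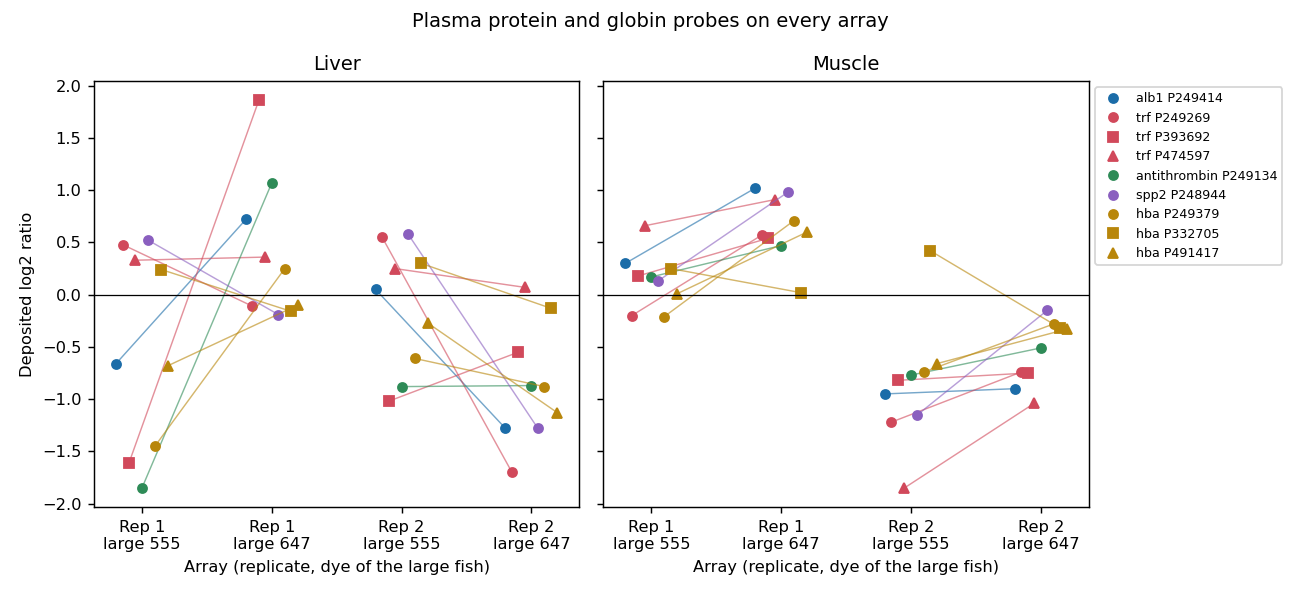
Deposited log2 ratio (vertical axis) of the 9 probes on the 4 liver arrays and the 4 muscle arrays (horizontal axis); each point is 1 probe on 1 array, and a line joins both arrays of a pool pair. In muscle 8 probes lie between 0.47 and 1.02 on the replicate 1 array with large fish in 647 and between -1.85 and -0.66 on the replicate 2 array with large fish in 555, while each liver array holds values on both sides of 0.

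In muscle, transcripts of the plasma proteins and of globin moved as a block. The albumin probe A_05_P249414 had deposited log2 ratios of 0.30 and 1.02 in replicate 1, with the large fish in 555 and then in 647, and of -0.95 and -0.90 in replicate 2. Albumin was thus positive on both arrays of one pool pair and negative on both arrays of the other. Its pair values as deposited were 0.66 and -0.93, or 1.58-fold and 1.90-fold in opposite directions, and averaged -0.13 ± 1.12 (± gives the SD, n = 2 pool pairs, here and below). Turned, they were -0.36 and -0.03, with a mean of -0.19 ± 0.24.

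All 3 transferrin probes followed albumin in muscle. Probe A_05_P474597 had the widest values, at 0.66 and 0.91 in replicate 1 and -1.85 and -1.04 in replicate 2. Its pair values lay farthest apart of all 9 probes, 0.79 against -1.44 as deposited, or 1.72-fold and 2.72-fold in opposite directions. Probe A_05_P393692 had 0.18 and 0.54, then -0.82 and -0.75, and probe A_05_P249269 had -0.20 and 0.57, then -1.22 and -0.74. Of the 12 values only the first of A_05_P249269 broke the pattern of positive values in replicate 1 and negative ones in replicate 2. Averaged over its probes, trf had pair values of 0.44 and -1.07 as deposited (mean -0.31 ± 1.07). Turned, that average was -0.23 in both pairs, but its probes differed between the pairs. A_05_P249269 had -0.38 and -0.24, A_05_P393692 had -0.18 and -0.03, and A_05_P474597 went the other way with -0.13 and -0.40.

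Antithrombin and spp2 went the same way in muscle. Antithrombin, probe A_05_P249134, had 0.17 and 0.47 in replicate 1 and -0.77 and -0.51 in replicate 2, which gave pair values of 0.32 and -0.64 as deposited. Turned, its pairs were close to each other at -0.15 and -0.13. Spp2, probe A_05_P248944, had 0.13 and 0.98, then -1.15 and -0.15. It had the lowest turned mean of the 9 probes in muscle, -0.46 ± 0.05, a 1.38-fold ratio, whereas as deposited its pairs were 0.56 and -0.65.

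Globin split by probe. Probe A_05_P249379 of hba had -0.21 and 0.71 in replicate 1 of muscle and -0.74 and -0.28 in replicate 2, and probe A_05_P491417 had 0.01 and 0.60, then -0.66 and -0.33. Both ran with the plasma proteins, with pair values of 0.25 and -0.51, and 0.30 and -0.50, as deposited. The third, A_05_P332705, which the annotation ties to another sequence record than the other 2, had 0.25 and 0.02, then 0.42 and -0.32. It was the only one of the 9 with positive turned pair values in muscle (0.12 and 0.37), and as deposited its pairs were near 0 at 0.14 and 0.05. The mean of all 3 hba probes therefore hid opposite turned values (-0.35, -0.23 and 0.24) behind one of -0.11 ± 0.15.

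Each value was also ranked among all probes of its array. On the replicate 1 muscle array with large fish in 647, 8 of the 9 probes lay between percentiles 95.7 and 99.3, all but hba A_05_P332705 at percentile 56.1. On the replicate 2 array with large fish in 555 the same 8 lay between percentiles 0.225 and 2.52. Values above the 95th percentile on the first array and below the 5th on the second were found at 8 of the 9 probes and at 1.8% of 41652 probes with a value on all 4 muscle arrays. The remaining arrays were less uniform: the 8 probes ranged from percentile 17.7 to 98.1 in replicate 1 with large fish in 555, and from 0.876 to 22 in replicate 2 with large fish in 647. These percentiles come from the values for which the genes were chosen and are not a test.

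**Figure D2:**
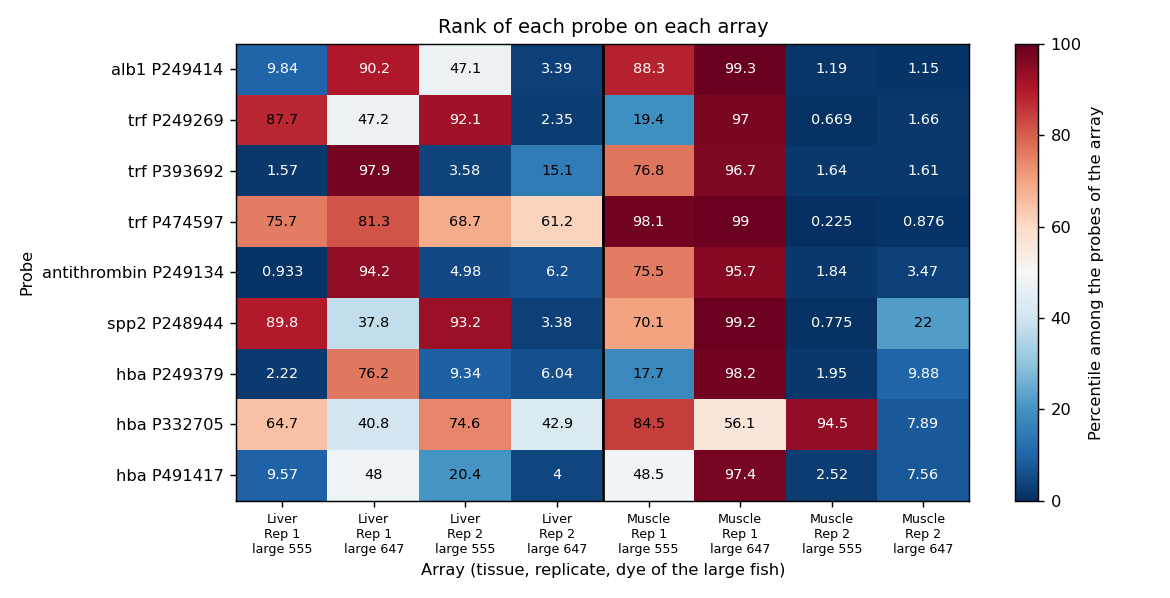
Percentile of each probe's deposited log2 ratio among all probes of the same array (colour and number), with probes as rows and the 8 arrays as columns. Alb1, trf, antithrombin, spp2 and hba P249379 and P491417 lie at or above 95.7 in the sixth column and at or below 2.52 in the seventh, and no liver column is as uniform.

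Signs were counted over the 9 probes in both ways. As deposited, 6 of the 9 probes were positive on both replicate 1 muscle arrays and negative on both replicate 2 arrays, against 6.32% of all 41652 probes. The pair value was positive in replicate 1 and negative in replicate 2 at 8 of the 9, against 25.9% of all. It was positive in both pairs at 1 of the 9 (24% of all) and negative in both at 0 (23%). Turned, 8 of the 9 were negative in both pairs, against 26.3% of all probes, and 1 was positive in both, against 31.1%. Within each muscle pair the array with large fish in 647 thus gave the higher deposited value at 8 of the 9 probes. Over all probes the share was 47.5% in each pair. The median turned mean of the 9 was -0.23, while that of all probes was 0.01. As deposited, the medians were -0.13 and 0.00.

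The readings gave the same values different shapes. Taken as already turned, the block had opposite signs in the pool pairs, with medians of 0.32 in replicate 1 and -0.65 in replicate 2 over the 9 probes. Taken in a fixed dye direction, its median turned values were -0.30 and -0.16, and the deposited means were then a dye part whose sign differed between the pairs. Which reading holds was not stated in the sources used here.

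**Figure D3:**
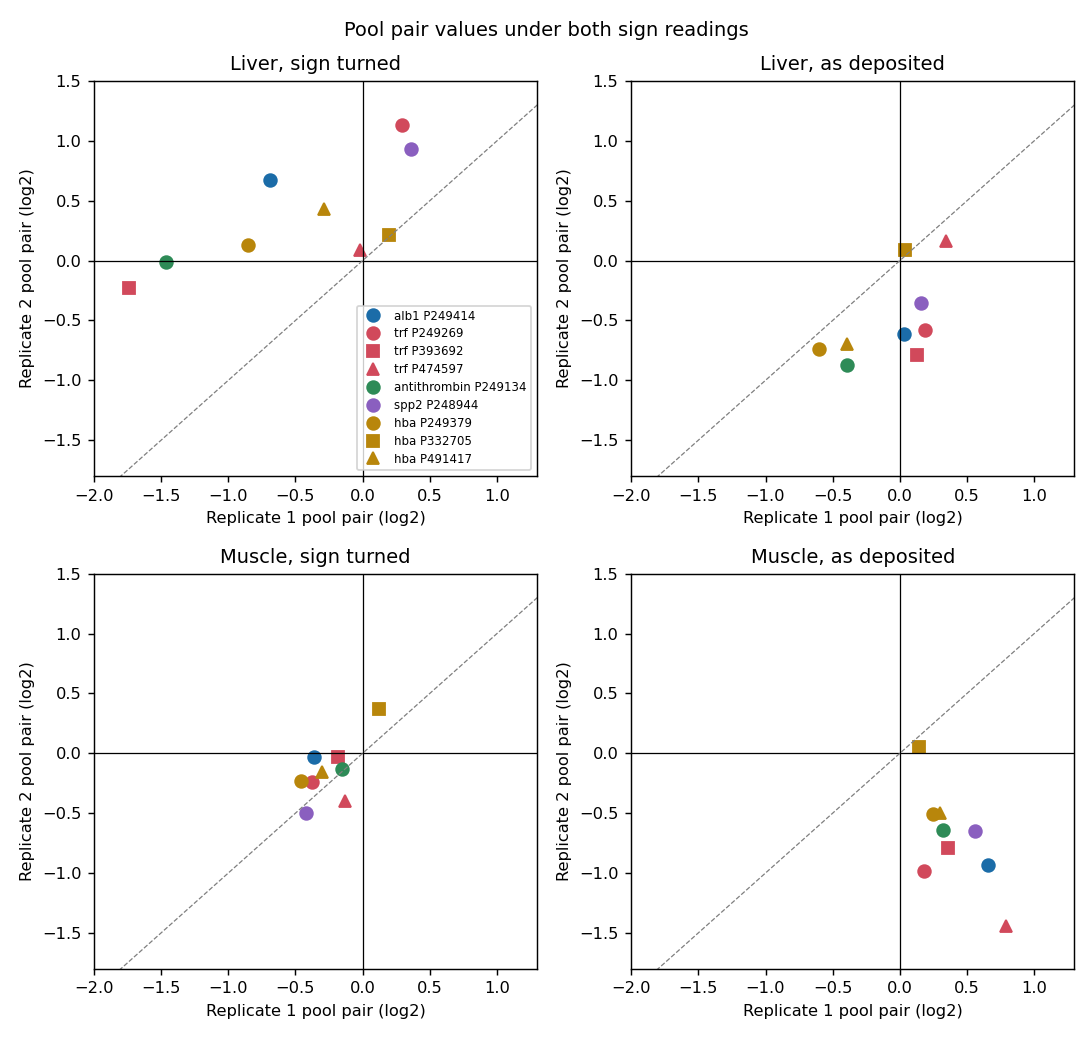
Pair value of replicate 2 (vertical, log2) against that of replicate 1 (horizontal, log2) for the 9 probes, in liver (top) and muscle (bottom), turned (left) and as deposited (right); the dashed line marks equal values. In muscle 8 probes sit at the lower left when turned and at the lower right as deposited, apart from hba P332705.

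In liver the same transcripts did not form a block as they did in muscle. On the replicate 2 array with large fish in 647, however, 8 of the 9 probes were negative, with a median of -0.88. The median of all probes on that array was -0.05, so negative values were the more common ones there too. Their share was not counted. Albumin had -0.66 and 0.72 in replicate 1 and 0.05 and -1.28 in replicate 2. Its turned pair values were opposite, -0.69 and 0.67, with a mean of -0.01 ± 0.96, and as deposited they were 0.03 and -0.61. Neither reading gave albumin 1 sign in both liver pairs.

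The 3 transferrin probes had unlike values in liver. Probe A_05_P393692 had -1.61 and 1.86 in replicate 1 and -1.02 and -0.55 in replicate 2, so its turned mean was -0.99 ± 1.06. Probe A_05_P249269 had 0.48 and -0.11, then 0.55 and -1.70, and its turned mean was 0.71 ± 0.59. Probe A_05_P474597 stayed between 0.07 and 0.36 on all 4 liver arrays, with a turned mean of 0.04 ± 0.07. Between the first and the second of these the gap on one liver array reached 2.09 on the log2 scale, whereas in muscle no array set them more than 0.41 apart. The second and the third reached a gap of 1.78 in liver and 0.86 in muscle, but their median gap was 0.38 in liver and 0.48 in muscle. The mean of the 3, -0.08 ± 0.57 turned and -0.09 ± 0.44 as deposited, covers values of both signs.

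Each of the diverging transferrin probes had a close companion among the other genes, a pairing made after their values were seen. Antithrombin, with -1.85 and 1.07, then -0.88 and -0.87 in liver, resembled trf A_05_P393692. The Pearson r of this pair of probes was 0.97 over the 8 arrays, each divided by its own standard deviation. Spp2, with 0.52 and -0.19, then 0.58 and -1.28, resembled trf A_05_P249269, with r = 0.93. The latter pair differed by at most 0.42 on a liver array. The r of both trf probes with each other was 0.43. The remaining trf probe, A_05_P474597, had r of 0.87 with A_05_P249269 and 0.64 with A_05_P393692. All these r take in the 4 muscle arrays, where these probes moved together, and none was taken over liver alone. The 8 arrays hold only 4 pool pairs, and these r are a description.

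Globin in liver again split by probe. Probe A_05_P249379 had -1.45 and 0.25, then -0.61 and -0.88, and probe A_05_P491417 had -0.68 and -0.10, then -0.27 and -1.13. As deposited these had 1 sign in both pairs, with means of -0.67 ± 0.10 and -0.54 ± 0.22, or 1.59-fold and 1.46-fold. Turned, both had opposite signs in the pairs, -0.85 and 0.13 for the first and -0.29 and 0.43 for the second. Probe A_05_P332705 had 0.24 and -0.16, then 0.30 and -0.13. Its turned mean of 0.21 ± 0.01 was the least variable of the 9 in liver, and its mean as deposited was 0.06.

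Blank control spots changed sign with the dyes on the liver arrays. The empty corner spot DarkCorner had 0.76 and -1.26, then 0.71 and -0.12, and the negative control (-)3xSLv1 had no value, then -1.66, 0.92 and -2.81. Spp2, trf A_05_P249269 and hba A_05_P332705 had the same signs as these spots, positive with large fish in 555 and negative with them in 647. Trf A_05_P393692, antithrombin, hba A_05_P249379 and alb1 had the other sign in replicate 1. In replicate 2 alb1, with 0.05 and -1.28, had the signs of the spots, and the others were negative on both arrays. No intensities were used, so how near any probe lay to the blank signal was not tested. In muscle the spots did not follow the block, with 0.32 and -0.48, then 0.52 and 0.58 for DarkCorner, and -0.04, -0.04, 0.22 and -0.07 for the negative control.

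**Figure D4:**
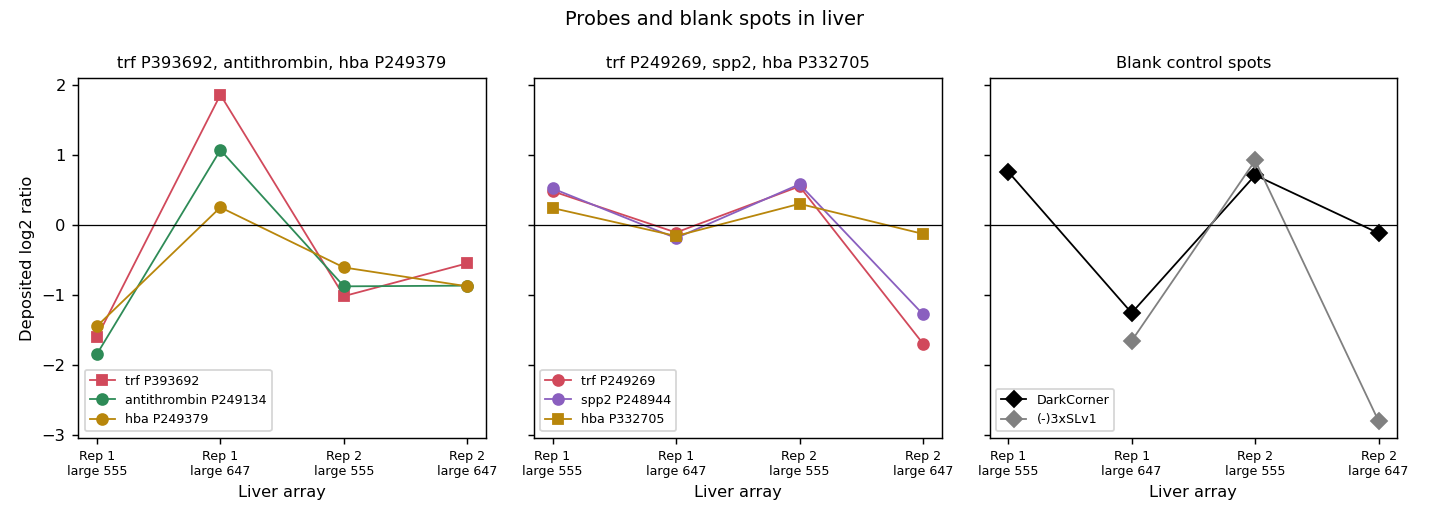
Deposited log2 ratio (vertical axis) on the 4 liver arrays (horizontal axis) for 2 sets of 3 probes and for the blank control spots DarkCorner and (-)3xSLv1, which has no value on the first array. The first set is low on 3 arrays and highest on the replicate 1 array with large fish in 647, from 0.25 to 1.86, while the second alternates in sign as the blank spots do. The sets were picked after their values were seen, and alb1, trf P474597 and hba P491417 are not drawn.

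Signs were counted in the same way over the liver arrays. Turned, 2 of the 9 probes were negative in both liver pairs (24.8% of 36053 probes) and 3 were positive in both (37.3%). As deposited, 3 were negative in both (24.7%) and 2 were positive in both (30.4%). The turned pair value of replicate 1 was below that of replicate 2 at 9 of the 9 probes, against 46.8% of all. As deposited, replicate 1 was above replicate 2 at 8 of the 9 in liver (46.9% of all) and at 9 of the 9 in muscle (49.3%), and 8 had this order in both tissues, against 24.5% of 34757 probes.

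The replicate 2 liver array with large fish in 647 had the widest spread of the 8 arrays, so the liver counts were repeated with replicate 2 taken from its 555 array, an alternative added once the values were known. Turned, 4 of the 9 were then negative in both liver pairs (27.3% of all probes) and 3 positive in both (43%). As deposited, 3 were negative in both (21.7%) and 5 positive in both (30.3%). Replicate 1 was below replicate 2 at 9 of the 9 when turned (52.2%), and above it at 4 of the 9 as deposited (45.8%). The deposited order in liver thus changed when that array was left out. Replicate 1 was still the mean of both its arrays, so a mean over both dyes was set against a value from 1 dye. Which of the 647 arrays the order rested on was not tested.

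The size of the gap between the replicates differed between probes, also between those of 1 gene for trf and hba. As deposited, the gap in muscle (replicate 1 minus replicate 2) was largest for trf A_05_P474597 at 2.23, followed by alb1 at 1.59 and spp2 at 1.21, and smallest for hba A_05_P332705 at 0.09. The hba probes A_05_P249379 and A_05_P491417, at 0.76 and 0.80, had smaller gaps than all 6 plasma protein probes, whose lowest was that of antithrombin at 0.96. In liver the gap was largest for trf A_05_P393692 at 0.92 and was 0.18 for trf A_05_P474597, the probe with the largest gap in muscle.

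A fit of all probes, in which each tissue's mean of pair values was tested against 0 in limma, called none of the 9. At an adjusted p under 0.05 the share of all probes called was 0% in liver and 0% in muscle, for the values turned and as deposited, so the fit called no probe of either tissue. At an unadjusted p under 0.05 it had 2 of the 9 in liver (20.4% of all probes) and 1 in muscle (4.53%) turned. As deposited, it had 1 (9.97%) and 0 (1.63%). Liver and muscle shared a common estimate of the spread in this fit, so their shares are not compared. Turned, the counts of all probes below this limit were 7346 in liver and 1885 in muscle. With each tissue fitted alone they were 2646 and 5046, so the order of the tissues changed. As deposited, they were 3596 and 680 in the shared fit, and 1531 and 1239 alone. The contrast of liver minus muscle also called 0% at an adjusted p under 0.05, with 2 of the 9 (8.97%) at an unadjusted p under 0.05 turned and 0 (4.94%) as deposited. Nothing is read from these counts for the 9 probes, since the same contrasts had been seen when the genes were chosen. A fit without 1 liver pool pair left a lone liver pair, assumed to vary as muscle does, so its calls are not read here. The number of pool pairs limits the precision of the fit.

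Among the named genes of the annotation, the patterns most like each member over the 8 arrays were often other members. Of 75 genes with a value on every array, those nearest to alb1 were trf (r = 0.95) and hba (r = 0.94), and those nearest to spp2 were trf (0.84) and alb1 (0.81). For hba they were alb1 (0.94) and trp-i (0.85), and for trf alb1 (0.95) and fadsd5 (0.93), a fatty acid desaturase gene. Antithrombin was nearest to the heat shock chaperone gene hsp90b and to ahr2g, an aryl hydrocarbon receptor gene, both at 0.91. Probes were also counted over all 34757 with 8 values, named or not, and those of the gene itself were not left out. In this count, 14 reached the r of trf with alb1, 68 that of fadsd5 with trf, and 468 that of alb1 with spp2. For antithrombin, 173 reached the r of hsp90b and 183 that of ahr2g, and for hba 282 reached that of trp-i. Probes that share arrays also share their dye and array effects. The probes of each gene were averaged before these r were taken, whereas the count took single probes. Probe by probe, alb1 had r of 0.82, 0.81 and 0.87 with trf A_05_P249269, A_05_P393692 and A_05_P474597. With hba A_05_P249379 and A_05_P491417 it had 0.83 and 0.94, but with hba A_05_P332705 only 0.01.

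In muscle the desaturase gene fadsd5 had -0.36 and 0.92, then -1.70 and -0.81. These are the signs of trf A_05_P249269 and hba A_05_P249379, which were described above with the block. In liver fadsd5 had -1.18 and 0.57, then -0.62 and -0.58, nearer to antithrombin than to spp2. The trp-i probe A_05_P248904 had 0.76 and 0.91, then -0.65 and -0.31 in muscle. It was thus positive on both replicate 1 arrays and negative on both replicate 2 arrays. The hsp90b probe A_05_P473112 was near this, with 0.47 and 0.70, then -0.24 and -0.0 (rounded). The other probe of trp-i, the other probes of hsp90b and ahr2g did not have this pattern in muscle. Of the skeletal muscle markers, 3 of 4 were annotated. The myogenic factor mrf4 had -0.30 and 0.80, then -0.51 and 0.28 in muscle, so like the block it was higher with large fish in 647 in both pairs, but its last value was positive, unlike those of the block. Parvalbumin (prvb) had 0.30 and -0.14, then 0.62 and -0.03, opposite to the block in its order. The 4 probes of the myosin light chain gene mlc-2 went different ways. A_05_P488692, with 0.66 and -0.29, then 0.79 and -0.12, and A_05_P248939, with 0.28 and -0.38, then 0.31 and -0.21, were lower with large fish in 647. A_05_P249999, with -0.32 and -0.18, then -0.04 and 0.30, was higher there in both pairs, as the block was. A_05_P488482 had 0.02 and 0.02, then 0.51 and 0.28. None of these marker probes was positive on both arrays of replicate 1 and negative on both of replicate 2, and their part in the block was not tested.

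Other plasma and red cell genes could not be set beside these. Of 41 symbols of plasma proteins made by the liver, the annotation held 4, all described above, and of 19 symbols of red cell and iron genes it held 1, hba. The remaining probes, 43382 without any symbol, may include such genes, which were not analysed here.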

How the data were processed

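The 8 arrays carry 2 colours each, with large and small fish in opposite dyes (Alexa Fluor 555 and 647). The deposited table gives log2 ratios, 1 per array and row. The log2 unit was read from the deposited values: 2 to the power of each value between 0.3 and 2 in size fell on a ratio of 3 decimals for 100.0% of them on each array, within 6e-05 on the log2 scale, against 10.0 to 10.8% with the sign turned. By this, the sign was not changed on any array after its ratios had been written to 3 decimals. Whether channels had been exchanged before that step is not shown by it. Background correction, normalization and the reason for missing cells are not given in the sources used here. Total RNA was extracted and mRNA isolated from it before direct cDNA labelling, per the labels' protocols.

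Of 43663 rows, 60 control spots were left out. The platform annotation of the probes, which is old, gave 221 probes 1 symbol, 0 several and 43382 none, and 104 of the symbols were locus placeholders. None of the 6 accessions of the 9 probes matched the reference gene table (0 matches), so no position or sequence is given.

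Arrays of one pool pair hold the same RNA and were reduced to 1 value, turned or as deposited. Pair values were fitted in limma 3.58.1 (R 4.3.3), with tissue as the group and default empirical Bayes moderation. Benjamini-Hochberg adjustment was over all probes with values on all 4 arrays of the tissue. There were 2 residual degrees of freedom, and 2.26 prior ones in the fit as deposited. The prior degrees of freedom of the turned fit were not recorded. The fit was run on simulated data with equal spread in all probes and both tissues. The simulated shifts were larger than any value of the 9 probes, so this checks the code and not its power here. Numbers of pools and their reading as biological replicates are an assumption, so p-values measure the spread between these pools. All 9 probes are named by the rule; other genes are the 2 named genes with the highest r per member, and the markers fixed in the design. Probes of that kind beyond the rule were not picked. Replicate numbers are shared by liver and muscle, but the labels do not say that the pools share fish. The numbers were therefore not taken to pair the tissues. The correlation across probes of same-numbered deviations was 0.067 turned and 0.0412 as deposited, which cannot tell whether fish were shared. Alternatives were median centring, scaling to one spread, fitting a tissue alone, leaving out a replicate, a random block per pool pair, a replicate block, and single probes in place of a gene's mean. Members and lists were chosen with earlier results of these data known.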

Additional observations from a re-analysis of the deposited data

Results flagged for a closer look

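For spp2 (A_05_P248944) and for transferrin probe A_05_P249269, both liver pool pairs were on one side of 0 and both muscle pairs on the other once the sign was turned. Over all probes, 37.3% were positive in both liver pairs and 24.8% negative in both. In muscle 26.3% were negative in both pairs and 31.1% positive in both. The share of all probes with opposite sides in the tissues was not counted, so nothing particular to these probes is read from it. Spp2 had 0.36 and 0.93 in liver and -0.42 and -0.50 in muscle, a difference of 1.11 between the tissue means (liver minus muscle). The transferrin probe had 0.29 and 1.13 in liver and -0.38 and -0.24 in muscle, a difference of 1.02. In the limma fit over all probes neither difference passed, with an adjusted p of 0.546 for each. Another transferrin probe, A_05_P393692, had -1.74 and -0.23 in liver and a difference of the other sign, -0.88, with an adjusted p of 0.616 in limma. As deposited, neither spp2 nor A_05_P249269 had 1 sign in both pairs of a tissue. These 2 probes have the signs of the blank control spots in liver, and the part of that in the difference was not tested.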

How the results depend on the processing

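With 2 pool pairs per tissue, no intensities and an unknown sign, the values limit what can be said to single ratios. The probes tested numbered 36053 in liver, 41652 in muscle and 34757 for liver minus muscle, and each count below is out of these. Counts from a lone liver pair are listed only, and nothing is read from them for the 9 probes. Over all probes the turned counts at an adjusted p under 0.05 in limma were 0 except as follows. Without one liver replicate they were 6270 to 6765 for liver, with 3 to 4 of the 9 probes, and 3376 to 3699 for liver minus muscle, with 3 of the 9; the lone liver pair is then assumed to vary as muscle does. A random block per pool pair passed 1864 liver probes, and liver replicate 2 from its 555 array alone, an alternative added once the values were known, passed 1485, with 0 and 2 of the 9. With muscle fitted alone, or with all arrays scaled to one spread, 3 muscle probes passed, none of the 9. As deposited, 962 to 2874 liver probes passed without one liver replicate, 0 to 1316 for liver minus muscle, and a random block per pool pair passed 1 muscle probe, with 0 of the 9 in each. The cause of these shifts was not tested. With the replicate block, liver minus muscle had 0 probes past the threshold, turned and as deposited. The replicate block changed no call.

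Of the 36 means of a probe in a tissue and reading, 2 changed sign when arrays were centred on their medians and 2 when they were scaled to one spread. Without muscle replicate 2, 8 of 18 muscle means changed sign, all as deposited, since the pairs were opposite there, and 0 did without muscle replicate 1. Without liver replicate 1 or 2, 2 and 6 of 18 liver means changed sign, and 4 did with liver replicate 2 from its 555 array alone. One probe in place of the mean of its gene changed the sign in 8 of 24 cases. The muscle sign pattern was met by 2632 of all probes, or 2713 after centring, and by 6 or 5 of the 9.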
